A study of Zea mays with 12 samples.

Results

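The genes for RNA processing and translation in the maize kernel were followed in WT and *smk7a* kernels at 12 and 20 days after pollination (DAP). They were chosen by a rule on their annotation that uses no expression value, though the choice was made with earlier results of these data known. A gene was taken if its deposited description names a ribosomal protein, a translation initiation or elongation factor, a tRNA enzyme, an RNA-binding protein, splicing, a helicase, a pentatricopeptide repeat (PPR) protein, a ribonucleoprotein or ribonuclease, or an RNA polymerase. Genes described as kinases, zinc finger proteins or transcription factors, and genes with the GO term chloroplast, were left out. Of the 720 genes in the table analysed here, 685 had identifiers within the range of the rule, 44 of these had such a description, and 41 were kept. Of the others, 1 was described as a transcription factor and 2 carried the GO term chloroplast. Among the 41 genes, 2 carry the narrower term chloroplast stroma and were kept.

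*smk7a* is a recessive small-kernel mutant from an EMS mutagenesis of the inbred line B73, and homozygotes do not grow into normal plants. The groups were WT kernels at 12 DAP, *smk7a* kernels at 12 DAP, WT kernels at 20 DAP and *smk7a* kernels at 20 DAP, with 3 replicates each and 12 samples in all. WT and *smk7a* kernels were picked from the same segregating ears, so both share the B73 background and the mutagenized lineage, and whether single WT kernels carried 1 copy of the mutant allele is not given in the sources used here. RNA came from whole kernels, so fewer cells of a type and less RNA per cell cannot be told apart, and nothing in the sources used here says that the replicates are separate ears, so that p-values measure the spread between these samples.

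Ribosomes make protein in the steps of initiation, elongation and termination, each driven by its own set of protein factors, and depend on tRNAs charged with amino acids. Before that, RNA polymerases with the Mediator complex produce the transcripts, spliceosomes remove introns, and RNA helicases and RNA-binding proteins remodel and route the RNA. PPR proteins bind RNA in mitochondria and plastids, where they act in editing, splicing and stability of organelle transcripts, and in maize the loss of single PPR genes is a known cause of small or empty kernels.

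Expression was measured as FPKM, fragments per kilobase of transcript and for a fixed number of mapped fragments, so levels can be compared between genes. The 41 genes differed widely in level. In all 12 samples 10 of them (24.4%) were listed at 0, against 153 of the 720 genes of the table (21.3%). Another 8 genes stayed at or under 1 FPKM everywhere, 23 passed 1 FPKM in at least 1 sample, 18 passed it in every sample, and 7 had a mean above 10 FPKM. The genes for 4 of the 6 ribosomal proteins were listed at 0, namely the 40S ribosomal proteins S14-3 (Zm00001d000104) and S4-3 (Zm00001d000121), the 60S ribosomal protein L11-2 (Zm00001d000159) and a ribosomal protein S4 family gene (Zm00001d001965). Since other copies of such genes can lie outside the table, nothing follows from these zeros for the proteins. Also listed at 0 were a cytoplasmic serine--tRNA ligase (Zm00001d000067), Mediator subunit 36a (Zm00001d001875), 3 helicases (Zm00001d001920, Zm00001d002040 and Zm00001d002120) and a PPR gene (Zm00001d002187).

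**Figure D1:**
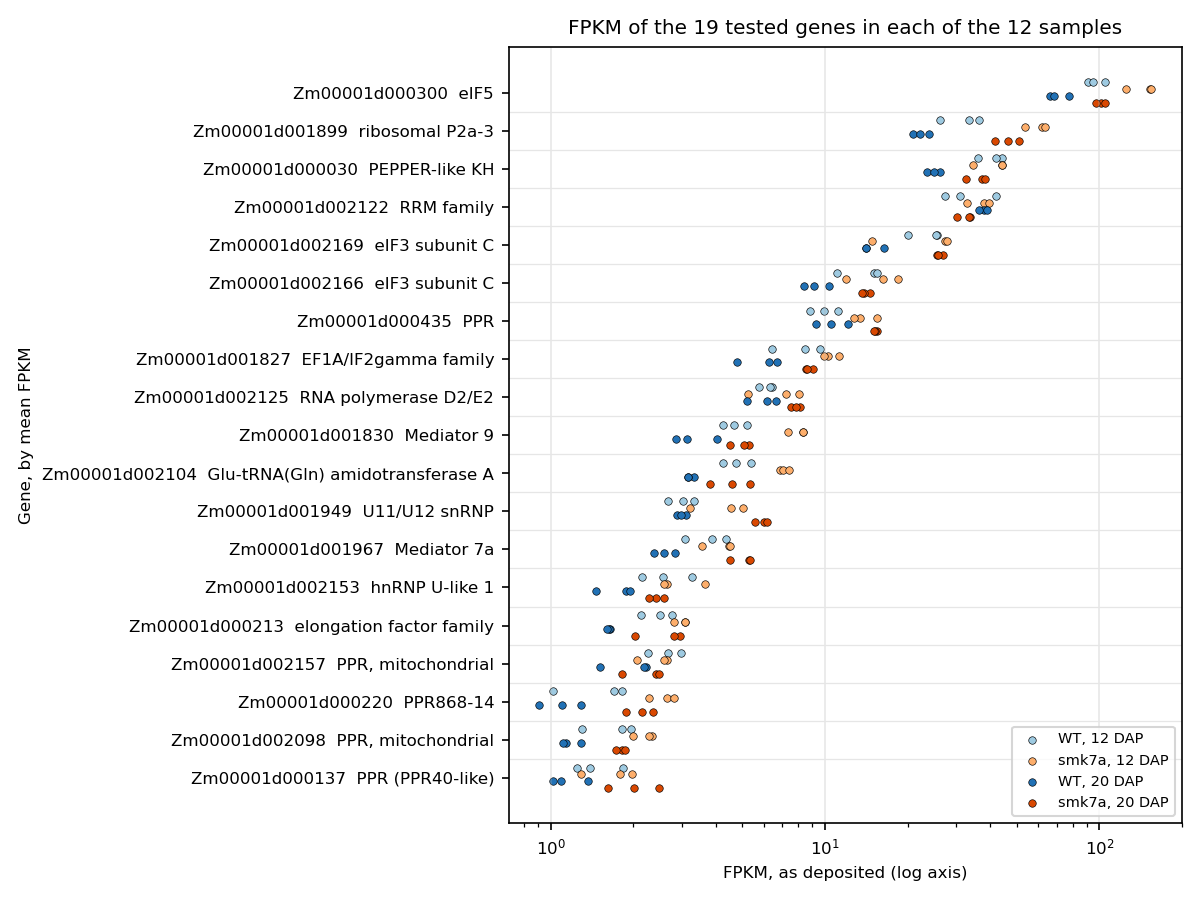
FPKM as deposited (log axis) of the 19 tested genes, one row per gene ordered by mean level, with each of the 12 samples as a point coloured by genotype and stage. Translation initiation factor 5 has the highest level (66.0 to 155 FPKM), and most genes lie between 1 and 10 FPKM.

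All values were compared with limma on log2(FPKM + 0.1), a scale that understates changes of low genes. A gene entered a comparison if at least 3 of its samples exceeded 1 FPKM, which left 19 of the 41 genes in every comparison. A gene was called differentially expressed at an adjusted p under 0.05 and a fold change above 2. The whole table shifted between groups: the median log2 difference of all genes tested was 0.48 for *smk7a* against WT at 12 DAP, 0.53 at 20 DAP, -0.55 for 20 against 12 DAP in WT and -0.44 in *smk7a*. Median of ratios scaling, which divides a sample by its typical ratio to the geometric mean over samples, moved these medians to 0.01, -0.02, -0.00 and -0.01, so each difference is given as deposited and with this scaling. The table holds 720 genes, a part of the genome, so these medians, the shares of all genes and the scaling are not genome-wide. The read depth is not in the table and is taken as unknown.

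Kernel identity was checked on the few marker genes within the table. All 3 endosperm markers were expressed, and their summed level was 519 to 548 FPKM in WT and 195 to 259 FPKM in *smk7a* at 12 DAP, and 282 to 331 FPKM in WT and 183 to 322 FPKM in *smk7a* at 20 DAP. Of 7 late embryogenesis abundant genes, 6 were listed at 0, and the remaining one summed to 12.4 to 19.9 FPKM in WT and 28.0 to 36.2 FPKM in *smk7a* at 12 DAP, and 10.03 to 12.7 FPKM and 11.2 to 15.4 FPKM at 20 DAP. Of 6 green tissue markers, 3 were at 0 and 1 passed 1 FPKM. Their summed level at 12 DAP was 4.14 to 9.50 FPKM in WT and 0.708 to 1.10 FPKM in *smk7a*, without overlap. At 20 DAP it was 2.52 to 4.44 FPKM in WT and 0.313 to 3.62 FPKM in *smk7a*. The part of these tissues in the differences below was not tested.

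At 12 DAP none of the 19 genes was called in *smk7a* against WT, whereas 18.6% of the 365 genes tested were called higher and 4.11% lower. Without the fold threshold, 6 genes (31.6%) passed the adjusted p as higher and 0 as lower, against 43.6% and 7.67% of all genes tested. An unadjusted limma p under 0.05 was found for 6 of the 19 genes, against 211 of the 365 genes tested. Higher values were the rule, in 17 of 19 genes against 79.7% of all genes, but the median difference was 0.28, below the 0.48 of all genes. The 3 *smk7a* values lay above all 3 WT values for 9 genes (background 51.5%) and below for 0 (background 9.04%). After scaling the median was -0.19 against 0.01, 5 of 19 genes were above 0 (background 50.7%), 1 gene passed the adjusted p as higher (background 16.4%) and 1 as lower (background 17%), and 0 were called higher or lower, where 7.67% and 8.22% of all genes were.

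At 20 DAP 17 of the 19 genes (89.5%) passed the adjusted p as higher in *smk7a* and 0 as lower, against 65.8% and 4.17% of the 336 genes tested. These differences were mostly under 2-fold, and 1 gene was called higher, where 14.3% of all genes were, and 0 lower, where 1.49% were. The difference was above 0 for 18 of 19 genes (background 89.6%), its median was 0.57, close to the 0.53 of all genes, and its range was -0.21 to 1.04. The groups did not overlap for 17 genes with *smk7a* higher (background 67.9%) and 1 gene with *smk7a* lower (background 5.36%). After scaling the median was 0.01 against -0.02, 3 genes passed the adjusted p as higher and 1 as lower, where 14.3% and 14.9% of all genes did. Of the 19 genes 11 were above 0 after scaling (background 47.6%), and 0 were called, where 3.87% of all genes were called higher and 4.46% lower.

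**Figure D2:**
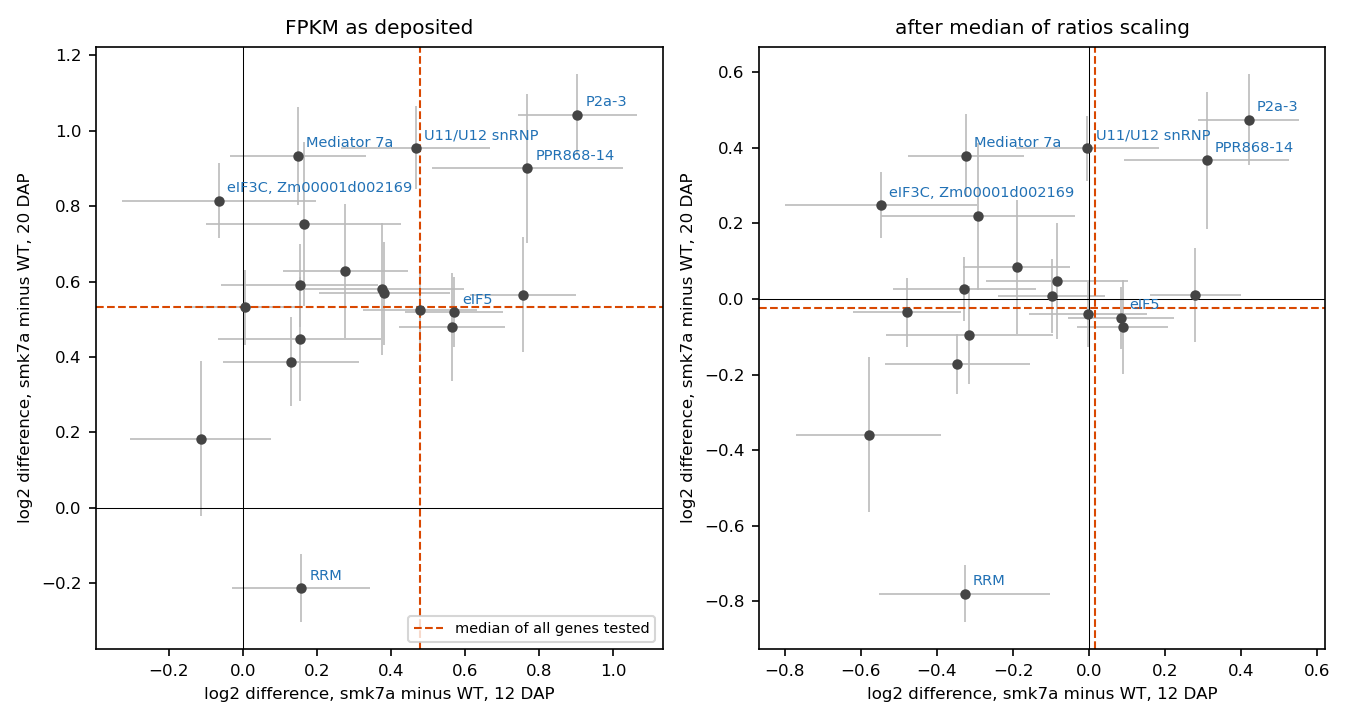
Log2 difference of *smk7a* minus WT at 12 DAP (x axis) and at 20 DAP (y axis) for the 19 tested genes, with limma's standard errors as bars and the median of all genes tested as dashed lines, for FPKM as deposited (left) and after median of ratios scaling (right). As deposited 18 of 19 genes lie above 0 at 20 DAP, and after scaling they lie on both sides of 0. RRM is the RRM family gene Zm00001d002122.

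Between the stages, 0 of the 19 genes were called in WT, where 2.03% of the 344 genes tested were called higher at 20 DAP and 15.7% lower. The adjusted p alone was passed by 10 genes as lower at 20 DAP (52.6%) and 0 as higher, against 56.7% and 4.36% of all genes. The median was -0.47 against -0.55, 2 of 19 genes were above 0 (background 15.4%), 12 genes were lower without overlap (background 63.1%) and 0 were higher (background 4.65%). At an unadjusted p under 0.05 there were 11, against 231 of the 344 genes tested. The count of 10 depended on single libraries. It was 4 without WT replicate 1 at 12 DAP (background 45.3%) and 4 without WT replicate 2 at 12 DAP (background 46.5%). Without WT replicate 2 at 20 DAP it was 5 (background 46.8%). After scaling 4 genes passed as higher (background 14.2%) and 0 as lower (background 11.9%), 13 of 19 lay above 0 (background 49.7%), and 0 were called, where 4.94% of all genes were called higher and 4.36% lower. The median was then 0.05 against -0.00.

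In *smk7a* 0 of 19 genes were called between the stages either, with 3.02% of the 364 genes tested called higher at 20 DAP and 16.2% lower. The adjusted p alone was passed by 4 genes as lower (21.1%) and 0 as higher, where 47.3% and 5.49% of all genes did. An unadjusted limma p under 0.05 was found for 6 of the 19 genes, against 216 of the 364 genes tested. The median was -0.18, above the -0.44 of all genes, 6 of 19 genes were above 0 (background 23.1%), and the groups were apart with 20 DAP lower for 7 genes (background 54.1%) and higher for 2 (background 8.79%). Replicate 2 of *smk7a* at 12 DAP was the lowest of the 3 for 13 of the 19 genes, against 40.0% of the 375 genes tested over all samples. Without it 8 genes (background 47.1%) passed the adjusted p as lower and the median was -0.24. After scaling 16 of 19 genes lay above 0 (background 49.5%), the median was 0.27 against -0.01, 4 genes passed as higher (background 17.9%) and 0 as lower (background 17.3%), and 0 were called, where 4.95% of all genes were called higher and 6.87% lower.

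The difference between the genotype differences of the 2 stages, tested as an interaction over all 12 samples, passed the adjusted p for 1 of the 19 genes. For all 375 genes tested 13.1% passed with a larger difference at 20 DAP and 8% with a smaller one. The median interaction was 0.26 against 0.15, or 0.17 against 0.06 after scaling. An unadjusted limma p under 0.05 was found for 3 of the 19 genes, against 125 of the 375 genes tested. The interaction was above 0 for 15 of 19 genes (background 57.9%) and for 14 after scaling (background 53.6%), when 1 gene passed as higher (background 13.3%) and 0 as lower (background 10.7%).

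**Figure D3:**
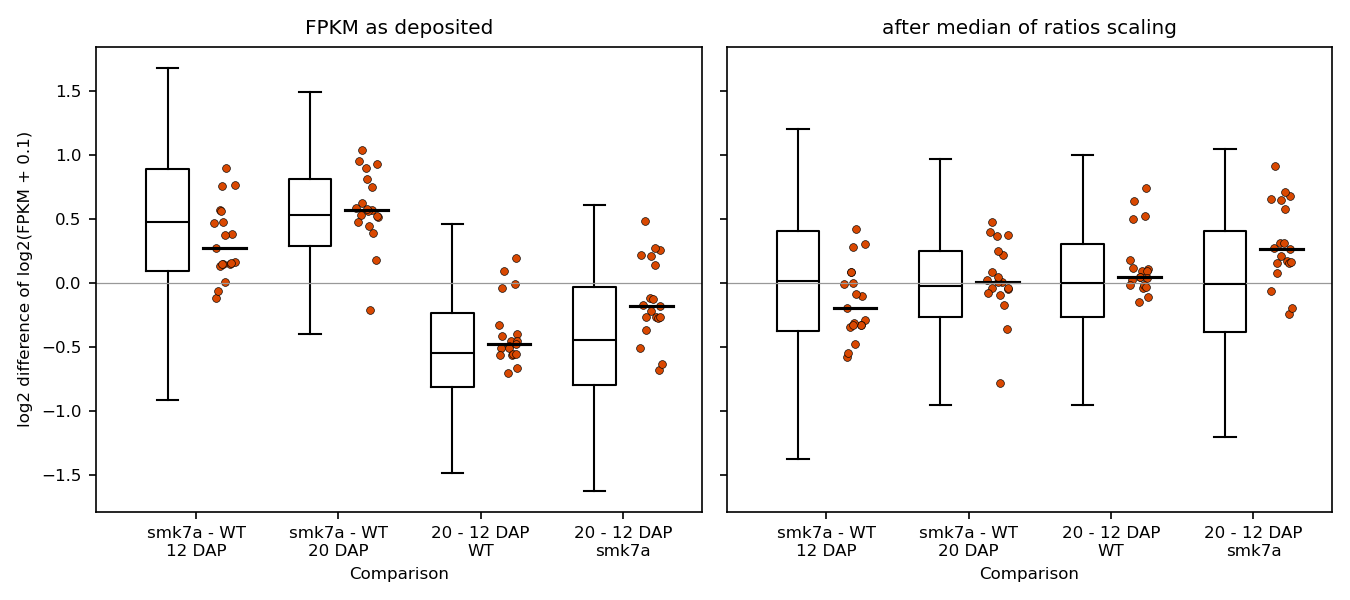
Log2 differences of the 19 genes (points, with their median as a bar) beside all genes tested (box from the first to the third quartile with the median as a line, whiskers to fixed low and high percentiles, genes beyond them not drawn) in the 4 comparisons, as deposited (left) and after scaling (right). The 19 genes' median lies below that of all genes at 12 DAP, 0.28 against 0.48, and above it for *smk7a* between the stages, -0.18 against -0.44.

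Among the ribosomal proteins the expressed gene was that of the acidic ribosomal protein P2a-3 (Zm00001d001899), a protein of the stalk of the large subunit, where elongation factors bind. At 12 DAP its level was 36.3, 33.5 and 26.3 FPKM in WT and 62.0, 53.6 and 63.3 FPKM in *smk7a*. At 20 DAP it was 21.0, 22.2 and 24.0 FPKM in WT and 51.0, 46.3 and 41.6 FPKM in *smk7a*. Every *smk7a* sample exceeded every WT sample, also across the stages. The means were 32.04 ± 5.13 and 59.6 ± 5.28 FPKM at 12 DAP and 22.4 ± 1.51 and 46.3 ± 4.72 FPKM at 20 DAP (SD, n = 3). The log2 difference was 0.90 (SE 0.16, limma adjusted p = 0.0034) at 12 DAP, a 1.87-fold higher level. At 20 DAP it was 1.04 (SE 0.11, adjusted p = 0.00017), a 2.06-fold higher level and the one call among the 19 genes. Relative to the median of all genes, P2a-3 was higher by 0.43 at 12 DAP and 0.51 at 20 DAP, and after scaling the differences were 0.42 (adjusted p = 0.046) and 0.47 (adjusted p = 0.026). The call at 20 DAP sat at the fold threshold, with 0.997 without WT replicate 1 and 0.97 without *smk7a* replicate 1. In both genotypes P2a-3 fell from 12 to 20 DAP as deposited, by 0.50 in WT (adjusted p = 0.016) and by 0.36 in *smk7a* (adjusted p = 0.038), and after scaling these differences were 0.05 and 0.08 with adjusted p = 0.86 and 0.69. As deposited the WT stage difference of Zm00001d001899 missed the threshold without WT replicate 1 or 2 at 12 DAP or replicate 1 at 20 DAP, with adjusted p from 0.051 to 0.079. The one in *smk7a* missed it without replicate 1 or 3 at 12 DAP or replicate 2 or 3 at 20 DAP, with adjusted p from 0.11 to 0.13. The interaction was 0.14 (SE 0.20, adjusted p = 0.63).

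All 5 translation factors passed 1 FPKM. Their differences at 20 DAP ran from 0.52 to 0.81, and all 5 passed the adjusted p as higher in *smk7a* (background 65.8%), while 1 of 5 did at 12 DAP (background 43.6%). After scaling 0 of 5 passed at either stage, with medians of -0.19 at 12 DAP and 0.03 at 20 DAP. Of all genes 16.4% then passed as higher and 17% as lower at 12 DAP, and 14.3% and 14.9% at 20 DAP.

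The highest of all 41 genes was that of eukaryotic translation initiation factor 5 (eIF5, Zm00001d000300), which triggers GTP hydrolysis by eIF2 when the start codon is found. Its level at 12 DAP was 105, 90.8 and 94.9 FPKM in WT and 154, 125 and 155 FPKM in *smk7a*. The 20 DAP values were 77.7, 66.0 and 68.4 FPKM in WT and 101, 97.5 and 105 FPKM in *smk7a*. The genotypes did not overlap at either stage. The differences of 0.57 (SE 0.13, limma adjusted p = 0.0092) and 0.52 (SE 0.09, adjusted p = 0.0016) lay close to the median of all genes. After scaling they were 0.08 (adjusted p = 0.69) and -0.05 (adjusted p = 0.70), and the range of its 4 scaled group means, 0.11 on the log2 scale, was the smallest of the 19 genes. From 12 to 20 DAP eIF5 fell by 0.46 in WT (adjusted p = 0.0051) and by 0.51 in *smk7a* (adjusted p = 0.0097). After scaling these stage differences were 0.10 and -0.06.

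The table holds 2 genes for subunit C of eukaryotic translation initiation factor 3 (eIF3), the large complex that gathers the initiation factors on the small ribosomal subunit. They are described here after their values were seen. How reads shared by these like-named genes were counted is not given in the sources used here, so the split between them is uncertain. Zm00001d002169 read 25.6, 25.4 and 20.0 FPKM in WT and 27.4, 14.8 and 27.9 FPKM in *smk7a* at 12 DAP, so the groups overlapped. At 20 DAP it read 16.4, 14.1 and 14.1 FPKM in WT and 27.0, 25.6 and 25.9 FPKM in *smk7a*, without overlap. The 20 DAP difference was 0.81 (SE 0.10, limma adjusted p = 0.000299), against -0.07 (SE 0.26, adjusted p = 0.84) at 12 DAP, and after scaling 0.25 (adjusted p = 0.069) and -0.55 (adjusted p = 0.13). The interaction was 0.88 (SE 0.30) and just missed the threshold with adjusted p = 0.051. After scaling the interaction was 0.79 (adjusted p = 0.059). The low value of *smk7a* replicate 2 at 12 DAP bears on its size: without that library it was 0.58 as deposited (adjusted p = 0.035). It also passed without *smk7a* replicate 1 (1.02, adjusted p = 0.034) or 3 (1.04, adjusted p = 0.029) at 12 DAP. The same held without WT replicate 3 at 12 DAP (0.996, adjusted p = 0.038). Without WT replicate 1 or 2 at 12 DAP, or any 1 of the 20 DAP samples, it missed the threshold.

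The other copy, Zm00001d002166, read 15.1, 15.5 and 11.1 FPKM in WT and 18.4, 11.9 and 16.3 FPKM in *smk7a* at 12 DAP. Its 20 DAP values were 10.4, 8.37 and 9.15 FPKM in WT and 14.5, 13.8 and 13.6 FPKM in *smk7a*. It too overlapped at 12 DAP and not at 20 DAP, where the difference was 0.59 (SE 0.11, adjusted p = 0.0021), or 0.03 after scaling (adjusted p = 0.85). The ratio of Zm00001d002169 to Zm00001d002166 needs no scaling between samples. It was 1.71 ± 0.08 in WT and 1.48 ± 0.24 in *smk7a* at 12 DAP, and 1.60 ± 0.08 in WT and 1.87 ± 0.02 in *smk7a* at 20 DAP (SD, n = 3). At 20 DAP the ratios ran from 1.54 to 1.69 in WT and from 1.85 to 1.89 in *smk7a*, and at 12 DAP from 1.64 to 1.80 and from 1.24 to 1.72. The genotypes were thus apart in this ratio at 20 DAP and overlapped at 12 DAP.

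**Figure D4:**
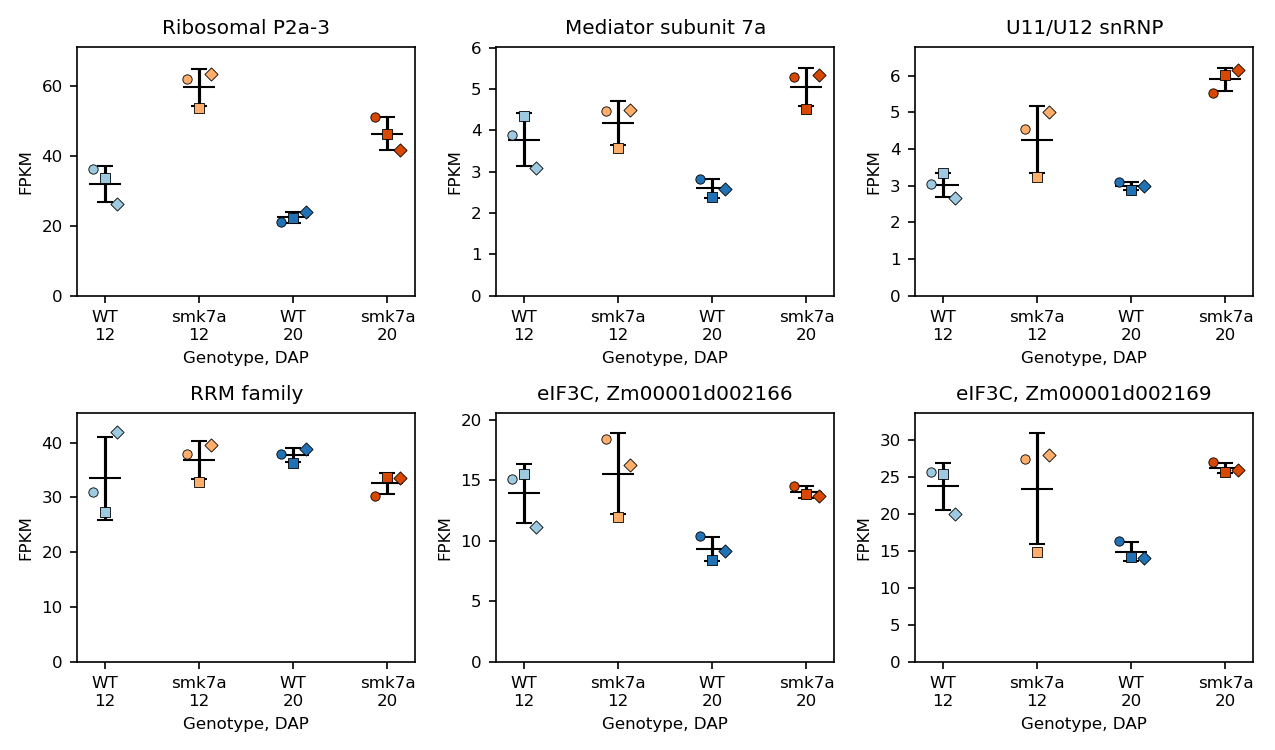
FPKM of 6 genes by genotype and stage, with replicates 1, 2 and 3 as circles, squares and diamonds, the mean as a horizontal bar and the SD as an error bar (n = 3). P2a-3 is higher in all *smk7a* samples, Mediator subunit 7a lies lower at 20 than at 12 DAP in WT, with *smk7a* at 20 DAP above all other samples, and the RRM family gene (Zm00001d002122) is lower in *smk7a* at 20 DAP. The low square of both eIF3 subunit C genes at 12 DAP is *smk7a* replicate 2.

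The last of the initiation and elongation factors were an EF1A/IF2gamma family gene (Zm00001d001827), of the GTPases that bring charged tRNA to the ribosome or act in its rescue, and an elongation factor family gene (Zm00001d000213). Their means over the 12 samples were 8.31 and 2.43 FPKM, and their 20 DAP differences were 0.57 (limma adjusted p = 0.0069) and 0.63 (adjusted p = 0.014), or 0.01 (adjusted p = 0.95) and 0.08 (adjusted p = 0.78) after scaling. The latter gene missed the threshold without *smk7a* replicate 3 (adjusted p = 0.057). At 12 DAP the adjusted p of these genes were 0.10 and 0.20. Of the tRNA genes, glutamyl-tRNA(Gln) amidotransferase subunit A (Zm00001d002104), an enzyme that completes glutamine tRNA in the organelles, was expressed. It read 5.39, 4.74 and 4.24 FPKM in WT and 6.87, 7.05 and 7.37 FPKM in *smk7a* at 12 DAP. Its 20 DAP values were 3.34, 3.16 and 3.17 FPKM in WT and 3.81, 5.33 and 4.59 FPKM in *smk7a*. The genotypes were apart at both stages, by 0.56 (SE 0.14, limma adjusted p = 0.013) and 0.48 (SE 0.14, adjusted p = 0.017), with 0.09 and -0.07 after scaling. At 20 DAP the adjusted p was 0.073 without *smk7a* replicate 2 and 0.053 without replicate 3. It fell from 12 to 20 DAP in both genotypes, by 0.55 in WT (adjusted p = 0.010) and by 0.63 in *smk7a* (adjusted p = 0.0095), with -0.01 and -0.20 after scaling. The WT stage difference missed the threshold without WT replicate 1 at 12 DAP (adjusted p = 0.071).

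PPR proteins were the largest group, with 11 genes, of which 8 passed 1 FPKM in a sample and 5 were tested. At 12 DAP 2 of 5 passed the adjusted p as higher in *smk7a* (background 43.6%), with a range of -0.11 to 0.77. At 20 DAP 4 of 5 did (background 65.8%), with a range of 0.18 to 0.90. None of the 5 passed between the stages in either genotype as deposited. Of all genes 56.7% passed as lower and 4.36% as higher in WT, and 47.3% and 5.49% in *smk7a*. After scaling 0 of 5 passed between the genotypes at either stage. Of all genes 16.4% then passed as higher and 17% as lower at 12 DAP, and 14.3% and 14.9% at 20 DAP.

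The PPR gene with the highest level, Zm00001d000435, read 8.79, 11.2 and 9.92 FPKM in WT and 15.5, 13.5 and 12.7 FPKM in *smk7a* at 12 DAP. By 20 DAP the values were 12.2, 9.29 and 10.5 FPKM in WT and 15.5, 15.2 and 15.1 FPKM in *smk7a*. The genotypes did not overlap, and the stages overlapped within each genotype. The genotype difference was 0.48 (SE 0.15, limma adjusted p = 0.032) at 12 DAP and 0.52 (SE 0.12, adjusted p = 0.0049) at 20 DAP, both close to the median of all genes, and -0.00 and -0.04 after scaling. At 12 DAP it missed the threshold, with adjusted p from 0.056 to 0.12, without WT replicate 1 or 3 or *smk7a* replicate 1 or 3. Its stage difference as deposited was 0.09 in WT (adjusted p = 0.65) and 0.14 in *smk7a* (adjusted p = 0.32), where the medians of all genes were -0.55 and -0.44. After scaling it was higher at 20 DAP, by 0.64 in WT (adjusted p = 0.012) and 0.58 in *smk7a* (adjusted p = 0.0081). The largest PPR difference, chosen here after its values were seen, was that of PPR868-14 (Zm00001d000220). It read 1.83, 1.70 and 1.02 FPKM in WT and 2.66, 2.81 and 2.29 FPKM in *smk7a* at 12 DAP, and 1.29, 1.10 and 0.910 FPKM in WT and 1.88, 2.35 and 2.16 FPKM in *smk7a* at 20 DAP. Again the genotypes were apart, by 0.77 (SE 0.26, adjusted p = 0.037) and 0.90 (SE 0.20, adjusted p = 0.0046), with 0.31 (adjusted p = 0.31) and 0.37 (adjusted p = 0.18) after scaling. The 12 DAP difference of Zm00001d000220 missed the threshold without WT replicate 2 or 3 or any 1 of the *smk7a* replicates, with adjusted p from 0.051 to 0.099. Without WT replicate 1 its 20 DAP difference was 1.01, past the fold threshold.

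Both splicing and ribonucleoprotein genes were expressed. The U11/U12 small nuclear ribonucleoprotein 25 kDa protein (Zm00001d001949) belongs to the minor spliceosome, which removes the rare U12-type introns. It read 3.04, 3.34 and 2.68 FPKM in WT and 4.54, 3.23 and 5.01 FPKM in *smk7a* at 12 DAP. By 20 DAP the values were 3.10, 2.88 and 2.99 FPKM in WT and 5.54, 6.01 and 6.15 FPKM in *smk7a*. The WT values of both stages overlapped, *smk7a* overlapped WT at 12 DAP only through replicate 2, and all *smk7a* values at 20 DAP lay above the other 9. The difference was 0.47 (SE 0.20, limma adjusted p = 0.087) at 12 DAP and 0.96 (SE 0.11, adjusted p = 0.00026) at 20 DAP, a 1.94-fold higher level and under the fold threshold. After scaling these were -0.00 and 0.40 (adjusted p = 0.015). Without *smk7a* replicate 2 the 12 DAP difference was 0.65 (adjusted p = 0.021). From 12 to 20 DAP the difference was -0.01 in WT (adjusted p = 0.97) and 0.48 in *smk7a* (adjusted p = 0.055), and after scaling 0.53 (adjusted p = 0.013) and 0.92 (adjusted p = 0.0086). The interaction was 0.49 (SE 0.23, adjusted p = 0.15). The other gene of the group, heterogeneous nuclear ribonucleoprotein U-like protein 1 (Zm00001d002153), had a mean of 2.46 FPKM. Its differences were 0.15 (adjusted p = 0.58) at 12 DAP and 0.45 (adjusted p = 0.039) at 20 DAP, and -0.31 (adjusted p = 0.30) and -0.10 (adjusted p = 0.63) after scaling. The 20 DAP value missed the threshold without WT replicate 2 or any 1 of the *smk7a* replicates, with adjusted p from 0.070 to 0.13.

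None of the 7 helicase genes, whose products unwind RNA or DNA with ATP, passed 1 FPKM, so none was tested. The highest was DEAD-box ATP-dependent RNA helicase 51 (Zm00001d000431), with 0.019 to 0.367 FPKM over the 12 samples.

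The group of 5 genes whose description names RNA polymerase also takes in Mediator subunits. Expressed were 3 of the 5, namely Mediator subunits 7a and 9 and RNA polymerase D2/E2. All 3 passed the adjusted p as higher in *smk7a* at 20 DAP (background 65.8%), with 1 of 3 doing so after scaling (background 14.3%). Mediator subunit 7a (Zm00001d001967) is part of the middle module of Mediator, the complex that links transcription factors to RNA polymerase II. It read 3.89, 4.34 and 3.09 FPKM in WT and 4.46, 3.57 and 4.50 FPKM in *smk7a* at 12 DAP. The 20 DAP samples read 2.83, 2.38 and 2.58 FPKM in WT and 5.30, 4.53 and 5.35 FPKM in *smk7a*. The genotypes overlapped at 12 DAP, and at 20 DAP all WT values lay below and all *smk7a* values above those of their genotype at 12 DAP, in *smk7a* by a margin of 4.53 against 4.50 FPKM. The difference was 0.15 (SE 0.18, limma adjusted p = 0.53) at 12 DAP and 0.93 (SE 0.13, adjusted p = 0.00056) at 20 DAP, with -0.32 (adjusted p = 0.14) and 0.38 (adjusted p = 0.038) after scaling. The interaction was 0.78 (SE 0.22, adjusted p = 0.024), or 0.70 after scaling (adjusted p = 0.019). It missed the threshold, with adjusted p from 0.052 to 0.065, when WT replicate 1 or 2 at 12 DAP, WT replicate 2 at 20 DAP, or *smk7a* replicate 1 or 3 at 20 DAP was left out. The stage difference was -0.51 in WT (adjusted p = 0.025, and 0.063 to 0.10 without replicate 1 or 2 at 12 DAP or replicate 2 or 3 at 20 DAP) and 0.27 in *smk7a* (adjusted p = 0.15), and after scaling 0.03 (adjusted p = 0.91) and 0.71 (adjusted p = 0.012).

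Mediator subunit 9 (Zm00001d001830), of the same module, had a mean of 5.25 FPKM. Its differences of 0.76 (limma adjusted p = 0.0043) at 12 DAP and 0.57 (adjusted p = 0.011) at 20 DAP were 0.28 (adjusted p = 0.11) and 0.01 (adjusted p = 0.95) after scaling. RNA polymerase D2/E2 (Zm00001d002125), a large subunit shared by the plant polymerases IV and V of the RNA-directed DNA methylation pathway, had the highest level of the group. It read 5.75, 6.40 and 6.28 FPKM in WT and 8.06, 5.23 and 7.23 FPKM in *smk7a* at 12 DAP. The 20 DAP samples read 6.61, 5.21 and 6.14 FPKM in WT and 7.54, 8.12 and 7.83 FPKM in *smk7a*. The groups overlapped at 12 DAP through *smk7a* replicate 2 and were apart at 20 DAP. The differences were 0.13 (SE 0.18, limma adjusted p = 0.57) and 0.39 (SE 0.12, adjusted p = 0.019), the latter below the median of all genes and with adjusted p = 0.069 and 0.057 without *smk7a* replicate 2 or 3, and -0.35 (adjusted p = 0.19) and -0.17 (adjusted p = 0.15) after scaling. Its stage difference as deposited was -0.04 in WT (adjusted p = 0.83) and 0.22 in *smk7a* (adjusted p = 0.32). After scaling it was 0.50 (adjusted p = 0.022) and 0.65 (adjusted p = 0.027).

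Of the 3 RNA-binding genes 2 were tested, and they stood among the 4 highest genes by mean level. The KH domain gene described as PEPPER (Zm00001d000030), named for an *Arabidopsis* gene that acts in pistil development, read 44.1, 41.9 and 36.1 FPKM in WT and 44.2, 34.5 and 44.2 FPKM in *smk7a* at 12 DAP. The 20 DAP samples read 26.3, 23.5 and 25.02 FPKM in WT and 37.3, 32.8 and 38.3 FPKM in *smk7a*. WT at 20 DAP stood below the other 9 samples. The difference was 0.01 (SE 0.16, limma adjusted p = 0.97) at 12 DAP and 0.53 (SE 0.10, adjusted p = 0.0021) at 20 DAP. After scaling it was -0.48 (adjusted p = 0.037) and -0.04 (adjusted p = 0.81), so the stage at which the genotypes differed depended on the scaling. From 12 to 20 DAP it fell by 0.70 in WT (adjusted p = 0.0021), with -0.15 after scaling (adjusted p = 0.29), and in *smk7a* the stage difference was -0.18 (adjusted p = 0.31), with 0.27 after scaling (adjusted p = 0.20). The interaction was 0.53 (SE 0.18, adjusted p = 0.057), and it was 0.61 (adjusted p = 0.033) without WT replicate 3 at 12 DAP. Over the 12 fits that left out 1 replicate it ran from 0.41 to 0.61, with adjusted p from 0.033 to 0.13.

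The RRM family gene (Zm00001d002122) was the one gene lower in *smk7a* at 20 DAP without overlap. It read 31.0, 27.4 and 42.0 FPKM in WT and 38.0, 32.9 and 39.5 FPKM in *smk7a* at 12 DAP, and the groups overlapped. At 20 DAP it read 38.0, 36.3 and 38.9 FPKM in WT and 30.3, 33.8 and 33.6 FPKM in *smk7a*, each below all WT values. The difference was 0.16 (SE 0.19, limma adjusted p = 0.52) at 12 DAP and -0.21 (SE 0.09, adjusted p = 0.061) at 20 DAP. Against the median of all genes the 20 DAP value was lower by 0.75, at the 8.04 percentile of the 336 genes, and after scaling the gene was lower by 0.78 on the log2 scale (adjusted p = 0.00051), past the adjusted p and short of the fold threshold. The 12 DAP difference after scaling was -0.33 (adjusted p = 0.30). Between the stages it was 0.20 in WT (adjusted p = 0.31) and -0.17 in *smk7a* (adjusted p = 0.23), and after scaling 0.75 (adjusted p = 0.027) and 0.27 (adjusted p = 0.11). Its interaction was -0.37 (SE 0.21, adjusted p = 0.24), and it was -0.54 (adjusted p = 0.031) without WT replicate 3 at 12 DAP, the library with its highest value. Over the 12 fits that left out 1 replicate it ran from -0.54 to -0.24, with adjusted p from 0.031 to 0.46. The range of its scaled group means, 1.01 on the log2 scale, was the largest of the 19 genes.

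Over the 4 groups the scaled means of the 19 genes spanned a median of 0.47 on the log2 scale, against 0.74 for all 375 genes tested. Their median SD between replicates was 0.16 against 0.21, at a median level of 5.25 against 5.38 FPKM. The summed level of the 41 genes was 298 ± 16.0 FPKM in WT and 395 ± 46.3 FPKM in *smk7a* at 12 DAP, and 227 ± 13.6 and 327 ± 4.40 FPKM at 20 DAP (SD, n = 3). As a share of all FPKM of the table this was 6.45 ± 0.186% and 6.78 ± 0.820% at 12 DAP, and 7.27 ± 0.275% and 7.45 ± 0.396% at 20 DAP. The shares of the genotypes overlapped within each stage, though the sums did not.

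Other genes were taken from the table if the text of their GO terms holds words for RNA or translation. The list is loose. It also holds genes described as CRY1 homolog2 (Zm00001d000120), a late embryogenesis abundant protein (Zm00001d000135) and a glycosyltransferase subunit (Zm00001d001846). Of 33 genes with such a term outside the 41, 22 were tested. At 12 DAP 9 (40.9%) passed the adjusted p as higher in *smk7a* and 2 (9.09%) as lower, against 43.6% and 7.67% of all genes tested. Of the 22 genes 0 were called, where 18.6% of all genes were called higher and 4.11% lower. After scaling 0 passed as higher (background 16.4%), 3 as lower (background 17%) and 1 was called lower (background 8.22%). At 20 DAP 18 (81.8%) passed as higher and 0 as lower, against 65.8% and 4.17% of all genes, and 2 were called higher (background 14.3%). Scaling left 3 that passed as higher (background 14.3%), 1 as lower (background 14.9%) and 1 called higher (background 3.87%). The 2 genes called as deposited were CRY1 homolog2 and Zm00001d001774. Of these, a probable CCR4-associated factor 1 homolog (Zm00001d001774), a deadenylase that shortens mRNA tails, had means of 2.41 FPKM in WT and 9.87 FPKM in *smk7a* at 20 DAP, a difference of 2.05 (SE 0.24, limma adjusted p = 0.00026) that was 1.49 after scaling. A signal recognition particle 19 kDa protein gene (Zm00001d001882), which helps to bring ribosomes to the endoplasmic reticulum, had means of 5.54 and 3.64 FPKM at 12 DAP and 2.42 and 4.57 FPKM at 20 DAP in WT and *smk7a*. Its interaction was 1.48 (SE 0.24, adjusted p = 0.0011), or 1.39 after scaling. Of the 22 genes 4 (18.2%) passed the interaction with a larger difference at 20 DAP and 0 with a smaller one. Of all genes tested 13.1% and 8% did. Of the 2 genes left out for the GO term chloroplast, leucine--tRNA ligase (Zm00001d001935) was tested. Its means were 24.3 and 22.5 FPKM at 12 DAP and 13.9 and 24.97 FPKM at 20 DAP in WT and *smk7a*, and its interaction was 0.97 (SE 0.23, adjusted p = 0.010). These 3 genes were picked after their values were seen.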

How the data were processed

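RNA of whole kernels was sequenced in 12 samples. The authors trimmed reads with Trimmomatic, used HISAT2 for mapping to B73 RefGen_V4, kept perfectly matching reads only, and deposited FPKM per gene. The program behind the FPKM is not given in the sources used here. The copy analysed here ends after 720 genes, and 0 identifiers matched the gene name table, so no coordinates or sequences are shown.

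The linear models were those of limma 3.58.1 (R 4.3.3, trend in the prior variance) on log2(FPKM + 0.1) over the samples of each comparison, with Benjamini-Hochberg adjustment over all genes tested. With 3 against 3 samples the exact two-sided permutation test cannot go below p = 0.1, so no such p is printed. FPKM are no counts and read totals were not recoverable, since 17.9% of 56 low genes fell into whole steps (8% tolerance). Replicates correlated across genes with r from 0.918 to 0.971 and shared 0 identical values.

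Genes named with values by rule were those called in a two-group comparison as deposited or scaled, those passing the interaction, the highest of each role, and the 3 nearest to the median of all genes per stage above a mean of 10 FPKM. Given with values outside this rule were Zm00001d000213, Zm00001d001827, Zm00001d001830, Zm00001d002153, both eIF3 subunit C genes and PPR868-14. The same holds for the 3 genes picked from outside the 41. The members and lists were chosen with earlier results of these data known. Tables and figures were made with Python 3.11.15, pandas 2.3.3 and matplotlib 3.10.9. Simulated data with known changes served to test the fits. Alternatives were the pseudocount (1 and 0.01 FPKM), the filter, the scaling, no trend, no fold threshold, a replicate block and leaving out each replicate.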

Additional observations from a re-analysis of the deposited data

Results flagged for a closer look

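The gene for Mediator subunit 7a (Zm00001d001967) was flagged because its genotype difference changed between the stages. It was the 1 of the 19 genes (5.26%) to pass the interaction, where 13.1% of all genes tested passed in this direction. The interaction was 0.785 on the log2 scale (limma adjusted p = 0.024), with a genotype difference of 0.15 at 12 DAP and 0.93 at 20 DAP. In some fits that left out 1 replicate the interaction missed the threshold, with adjusted p from 0.052 to 0.065.

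For the same gene the samples of the stages were apart in opposite directions in the 2 genotypes as deposited, a difference of directions that was not tested beyond the interaction above. In WT the means were 3.77 FPKM at 12 DAP and 2.60 FPKM at 20 DAP (adjusted p = 0.025). In *smk7a* they were 4.18 and 5.06 FPKM, a difference of 0.27 that did not pass the test (adjusted p = 0.15), and the groups were apart by no more than 4.53 against 4.50 FPKM. After scaling both stage differences were above 0, with 0.03 in WT and 0.71 in *smk7a*.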

How the results depend on the processing

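Without the fold threshold the genes passing were 6 (12 DAP, higher), 17 (20 DAP, higher), 10 (WT between stages, lower) and 4 (*smk7a* between stages, lower), in place of 0, 1, 0 and 0. Of all genes tested 43.6%, 65.8%, 56.7% and 47.3% passed in these directions. The 1 call at 20 DAP became 0 after scaling and 0 to 2 when single replicates were left out. The 1 interaction call became 2 with a pseudocount of 1 (background 15.2%) and 2 with the filter of 1 FPKM in every sample (background 20.3%). The added gene was Zm00001d002169 (limma adjusted p = 0.048 and 0.041). When single replicates were left out the interaction calls ran from 0 to 3 (background 9.07% to 18.0%). In the other direction they ran from 0 to 1 (background 5.33% to 8.42%).

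Median of ratios scaling turned the sign of 20 values of the named genes. At 12 DAP these were Zm00001d000030 (-0.48), Zm00001d000435 (-0.0028), Zm00001d001949 (-0.0048), Zm00001d001967 (-0.32), Zm00001d002122 (-0.33) and Zm00001d002125 (-0.35), and at 20 DAP Zm00001d000030 (-0.035), Zm00001d000300 (-0.050), Zm00001d000435 (-0.041), Zm00001d002104 (-0.074) and Zm00001d002125 (-0.17). Between the stages they were in WT Zm00001d000300 (0.097), Zm00001d001899 (0.047), Zm00001d001949 (0.53), Zm00001d001967 (0.025) and Zm00001d002125 (0.50), and in *smk7a* Zm00001d000030 (0.27), Zm00001d001899 (0.078) and Zm00001d002122 (0.27), and for the interaction Zm00001d000435 (-0.039). By construction the scaling removes the shift of the whole table.

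Leaving out single replicates turned the sign of values near 0, whose ranges were -0.079 to 0.12 for Zm00001d000030 at 12 DAP, in WT between the stages -0.0072 to 0.19 for Zm00001d000435, -0.087 to 0.067 for Zm00001d001949 and -0.12 to 0.054 for Zm00001d002125, and for the interaction -0.15 to 0.020 for Zm00001d000300, -0.047 to 0.15 for Zm00001d000435 and -0.20 to 0.039 for Zm00001d002104.

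No pairing by replicate number was seen: deviations of same-numbered samples correlated with r from -0.29 to 0.17, and of different-numbered samples from -0.32 to 0.19. With 3 samples per group this cannot exclude pairing. With the replicate block the calls were the same (0, 1, 0 and 0, and 1 for the interaction), and the adjusted p alone was passed by 5, 16, 8 and 3 genes in place of 6, 17, 10 and 4. Of all genes tested 40.3%, 61.0%, 52.9% and 41.2% passed in the same directions with the block. Without the filter 31 genes were tested and 6 passed as lower in WT between the stages, in place of 10 (background 36.3% of 532 genes, in place of 56.7%). Low levels limit what can be read from the 22 genes that were not tested.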
